A study of Mus musculus with 15 samples.

Results

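The genes described here encode the proteins that coat lipid droplets, fuse them and release fatty acids from them: 4 perilipins (Plin2, Plin3, Plin4 and Plin5), 3 CIDE proteins (Cidea, Cideb and Cidec), the lipase Pnpla2, its relative Pnpla3 and the lipase inhibitor G0s2. They were chosen by name for their function, and all 10 were among the 15302 genes of the count table and among the 12274 with enough counts to be tested. RNA was from the livers of 15 wild-type (WT) mice, 5 in each of the groups Vehicle, GDF15 and PairFed. Every animal had been put on a MASH diet, which brings on metabolic dysfunction-associated steatohepatitis, at 8 weeks of age, was kept at about 29°C and lived in a cage of its own. Recombinant GDF15, a hormone that curbs appetite, was injected under the skin each morning at 1 nmol/kg; PairFed animals got as much food as the GDF15 group had eaten on the previous day, and Vehicle animals were the controls. Whether the PairFed and Vehicle animals were injected with buffer, the strain, the sex, the age at sampling and the length of treatment were not stated. All 3 groups carried the diet, so no comparison is with a lean liver, and the labels list the samples as separate livers.

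A lipid droplet is a core of triglyceride and cholesterol ester under a single layer of phospholipid. Perilipins sit on that layer and control which lipases reach the core; PLIN2 is the common coat protein of the fatty hepatocyte, and PLIN5 ties droplets to mitochondria in cells that burn fatty acids. CIDE proteins join droplets into larger ones and, for CIDEB, take part in loading very-low-density lipoprotein (VLDL). PNPLA2, also called ATGL, makes the first cut in triglyceride, G0S2 binds and inhibits it, and PNPLA3 is a droplet protein of the same family whose gene is switched on by feeding and insulin.

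Values are CPM, a gene's counts relative to the library total after TMM scaling (edgeR's standard correction for library composition), and differences are log2 fold changes with their standard error (SE) from edgeR's quasi-likelihood test, with p adjusted by Benjamini-Hochberg over all 12274 genes and called below 0.05. Library totals ran from 8551557 to 12994187 counts. The largest gap in total, from 10914914 to 12137462, set 5 deeper libraries (Vehicle 4 and PairFed 2 to 5) apart from 10 shallower ones, so PairFed and depth were largely tied. Hepatocyte markers were abundant in every library: 8 of the 9 listed were in the table, with summed levels of 86761 to 108650 CPM (Vehicle), 98934 to 129430 CPM (GDF15) and 95645 to 118950 CPM (PairFed). Of 9 adipocyte markers, 4 were in the table and summed to at most 29.4 CPM in any library. Genes of the immediate-early response, which moves within minutes of a stimulus or of handling, summed to 415 to 820 CPM in Vehicle, 560 to 2111 CPM in GDF15 and 677 to 1235 CPM in PairFed. Because the RNA is from whole tissue, fewer cells of a type and less RNA per cell cannot be told apart.

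Per kilobase of exon, which allows genes to be compared, Plin2 was the most abundant of the 10 at 493 ± 73.8 CPM per kb (SD over the 15 libraries). Cideb followed at 248 ± 16.6 CPM per kb, and the order Plin2, Cideb, G0s2 held in 15 of 15 libraries. Below them lay a band of genes with overlapping levels: G0s2 at 65.4 ± 22.4, Cidec at 43.8 ± 14.3, Pnpla2 at 35.4 ± 6.96, Plin3 at 32.7 ± 2.79, Plin5 at 30.7 ± 8.64 and Plin4 at 22.3 ± 7.27 CPM per kb. Each gene of that band was above the next in 10 to 13 of the 15 libraries, so the order of neighbours did not hold in every library, and it was not tested. Cidea (15.7 ± 7.45 CPM per kb) and Pnpla3 (8.94 ± 7.04 CPM per kb) were the lowest. Plin5 moved within the order: it stood at 41.1 ± 4.04 CPM per kb in GDF15, above Plin3 there (33.1 ± 2.18), whereas in Vehicle it stood at 26.8 ± 3.83 against 31.0 ± 3.23 for Plin3.

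**Figure D1:**
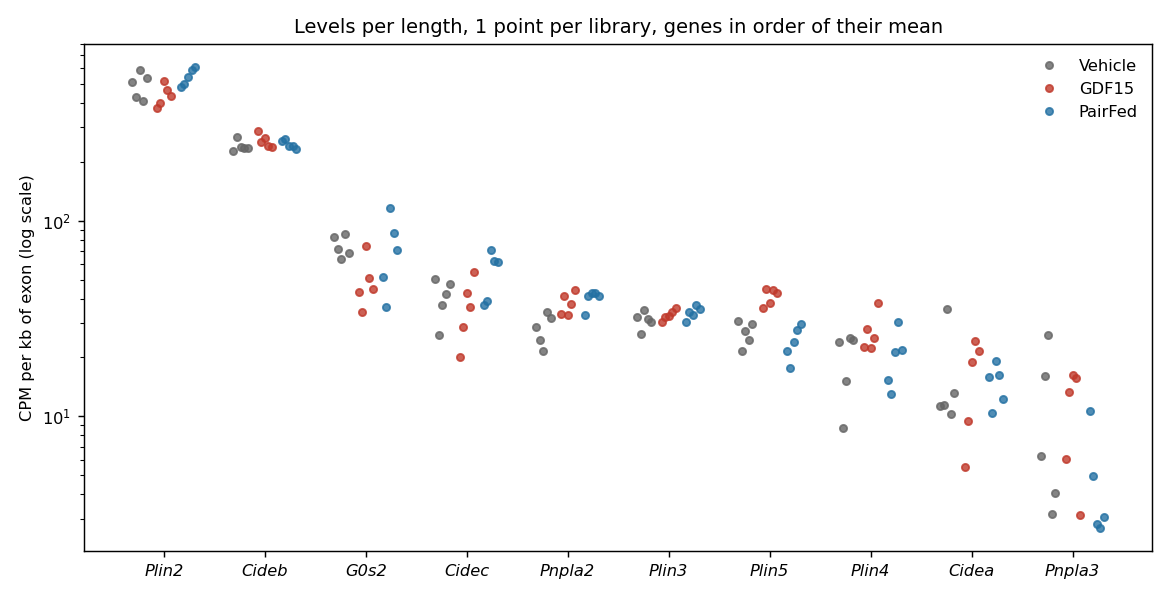
Level of each gene per kilobase of exon (CPM per kb, log axis) in the 15 libraries, 1 point per library, coloured by group, with genes in order of their mean. Plin2 and Cideb stand above the other 8 in every library, and the points of Pnpla3 spread the most.

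In the comparison of GDF15 with Vehicle, which takes in the hormone and any change in food intake that came with it, 1 of the 10 genes was called, where 2.9% of all tested genes were. In PairFed against Vehicle, which compares food amounts but also differs in library depth, 0 of 10 were called (0.285% of all genes). Of the 10, 1 was at an unadjusted p below 0.05 in edgeR, 1 was called by DESeq2 and 0 by limma-voom. In GDF15 against PairFed, which holds the food amount alike but not the library depth, 1 of 10 was called (0.782% of all genes). The median log2 fold change of the 10 was 0.04, 0.05 and 0.01 in these comparisons, against medians over all genes that were -0.0046, -0.00050 and 0.00071, and 5, 6 and 5 of the 10 were above zero. The droplet genes as a group thus lay near the middle of all genes, and the gene called was Plin5 in both comparisons that had a call. The comparisons share libraries, so their values are not independent of each other.

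**Figure D2:**
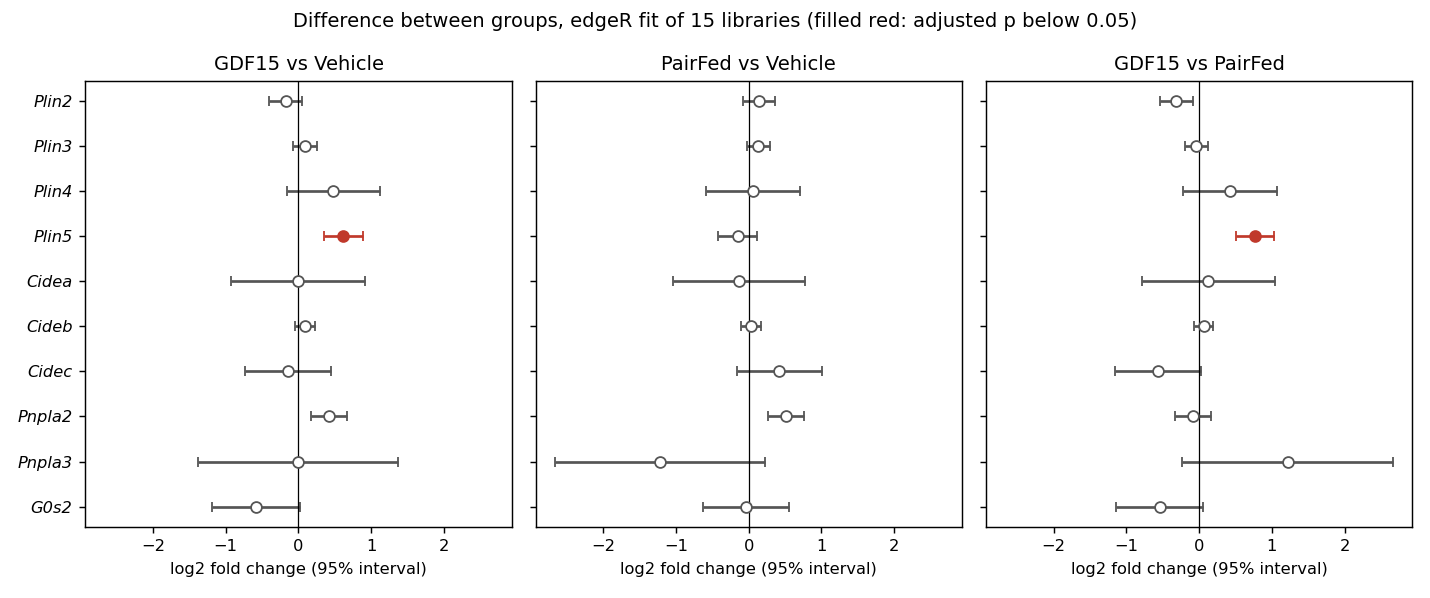
Log2 fold change of each gene with its 95% confidence interval in the 3 comparisons, from the edgeR fit of all 15 libraries, with filled red points at an adjusted p below 0.05. Plin5 is filled in GDF15 vs Vehicle (0.62) and GDF15 vs PairFed (0.77), and the intervals of Pnpla3 are the widest.

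Plin5, the perilipin of oxidative tissues, was higher in the livers of GDF15 animals than in either other group. Its level was 64.3, 44.8, 57.2, 51.3 and 62.2 CPM in the 5 Vehicle libraries. In GDF15 it was 74.2, 93.7, 79.6, 92.1 and 89.1 CPM, and in PairFed 45.0, 37.0, 50.2, 57.6 and 61.5 CPM. All 5 GDF15 libraries were above all 10 others, and Vehicle and PairFed overlapped; groups did not overlap for 3.99% of all genes in GDF15 vs Vehicle and for 2.86% in GDF15 vs PairFed. The means were 56.0 ± 7.99 CPM in Vehicle, 85.7 ± 8.44 CPM in GDF15 and 50.3 ± 9.78 CPM in PairFed (SD, n = 5 each). Against Vehicle, Plin5 rose by 0.62 ± 0.13 on the log2 scale, or 1.53-fold (95% interval 0.35 to 0.88, edgeR adjusted p = 0.0145). Against PairFed it was higher by 0.77 ± 0.13, or 1.71-fold (0.50 to 1.04, adjusted p = 0.00977). PairFed differed from Vehicle by -0.15 ± 0.13 (-0.42 to 0.11, adjusted p = 0.565), so the rise was not seen at the matched food amount, and the direct comparison of GDF15 with PairFed is the test of that difference. The call against Vehicle was lost without GDF15 2 (0.58, adjusted p = 0.0535) and with an immediate-early covariate (0.64, adjusted p = 0.306). The call against PairFed was lost with a term for the deeper libraries (0.78, adjusted p = 0.215) and in the shallower libraries alone (0.93, adjusted p = 0.752), where PairFed 1 is the only PairFed library; the size of the difference was as large there. Within the shallower libraries every GDF15 value (74.2 CPM or more) was above every Vehicle value (64.3 CPM or less). The share of all genes whose groups separate within these libraries was not computed.

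**Figure D3:**
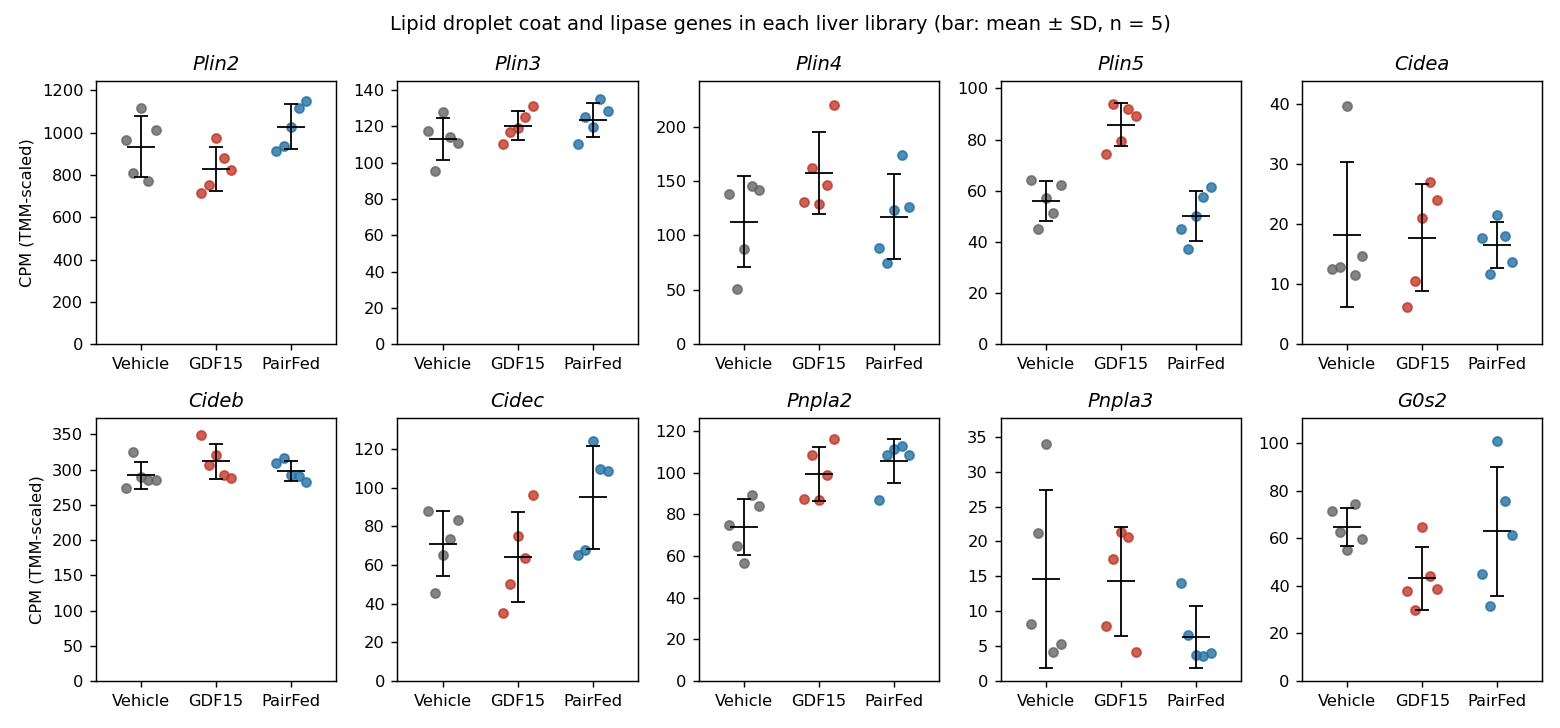
Level of each gene (CPM, TMM-scaled, axes from 0) in each library of the 3 groups, 1 point per library, with bars for the mean ± SD of 5. The Plin5 points of GDF15 (74.2 to 93.7 CPM) lie above all other Plin5 points, and the Pnpla2 points of Vehicle (56.8 to 89.4 CPM) lie mostly below those of the other groups.

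Plin5 (ENSMUSG00000011305.11) lies on the minus strand of chromosome 17, at chr17:56111601-56117596 of GRCm38, the assembly also named mm10. The perilipin gene Plin4 lies 1797 bases away, at chr17:56100591-56109803 on the same strand, and Lrg1, which encodes a secreted glycoprotein, lies 2081 bases to the right. Neither neighbour was called: Plin4 differed from Vehicle by 0.48 ± 0.30 in GDF15 (adjusted p = 0.459), and Lrg1 by -0.15 ± 0.10 (adjusted p = 0.489). The promoter windows of Plin5, of the most abundant gene Plin2 and of Pnpla2, from 250 bases before to 50 bases after the start site in RefSeq on GRCm38.p6, are printed because receptors of the PPAR family, known regulators of droplet genes, bind repeats of the letters AGGTCA. RefSeq windows matched 9 of the 10 genes, with 11 windows in all. Capitals mark matches on either strand to AGGTCA or to its direct repeat, in which any base may lie between the copies and up to 2 letters may differ.
Plin5, minus strand, chr17:56117249-56117548: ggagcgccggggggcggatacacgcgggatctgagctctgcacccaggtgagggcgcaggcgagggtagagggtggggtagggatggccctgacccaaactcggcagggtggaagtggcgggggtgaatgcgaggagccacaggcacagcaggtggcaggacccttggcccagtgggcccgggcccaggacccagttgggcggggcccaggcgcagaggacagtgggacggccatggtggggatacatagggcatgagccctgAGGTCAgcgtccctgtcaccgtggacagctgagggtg
Plin5, minus strand, other start, chr17:56117499-56117798: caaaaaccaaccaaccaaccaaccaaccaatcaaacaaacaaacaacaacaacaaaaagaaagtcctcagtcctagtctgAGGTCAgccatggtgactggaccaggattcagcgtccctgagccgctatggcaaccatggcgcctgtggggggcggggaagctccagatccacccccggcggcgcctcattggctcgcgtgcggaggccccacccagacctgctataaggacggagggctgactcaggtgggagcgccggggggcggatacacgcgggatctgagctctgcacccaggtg
Plin2, minus strand, chr4:86670010-86670309: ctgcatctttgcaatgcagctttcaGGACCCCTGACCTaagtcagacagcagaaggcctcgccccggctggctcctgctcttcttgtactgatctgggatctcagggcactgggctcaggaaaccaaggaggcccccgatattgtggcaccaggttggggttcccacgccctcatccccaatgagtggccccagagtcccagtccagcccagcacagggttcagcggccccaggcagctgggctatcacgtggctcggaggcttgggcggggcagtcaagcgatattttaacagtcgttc
Pnpla2, plus strand, chr7:141454938-141455237: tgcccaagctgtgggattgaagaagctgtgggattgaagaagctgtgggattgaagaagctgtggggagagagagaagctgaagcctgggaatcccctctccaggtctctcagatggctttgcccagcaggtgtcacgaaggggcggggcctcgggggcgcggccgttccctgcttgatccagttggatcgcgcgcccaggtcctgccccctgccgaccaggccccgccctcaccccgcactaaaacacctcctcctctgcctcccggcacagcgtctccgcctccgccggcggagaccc
Both Plin5 windows hold a single AGGTCA, at position 13 after the start of the first window's transcript and at position -170 in the other. The Plin2 window holds the repeat on the reverse strand at -225, and this match overlaps an AGGTCA match at -218. The Pnpla2 window holds neither. Over all 32851 RefSeq windows of this length, 16.3% hold AGGTCA and 3.86% the repeat, against 3 and 1 of the 11 windows of the 9 genes searched. The palindrome of the glucocorticoid receptor, AGAACA and TGTTCT with 3 bases between them and up to 2 mismatches, was in 1.84% of all windows and in 0 of the 11. These matches describe letters in a short window and say nothing of binding.

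Plin2, whose protein is stabilised by the fat it coats and so tracks liver fat, was not called in any comparison. It measured 967, 807, 1118, 770.1 and 1011 CPM in Vehicle. The GDF15 libraries had 715, 752, 974, 881 and 822 CPM, and the PairFed libraries 912, 938, 1025, 1117 and 1152 CPM. The group means were 935 ± 145, 829 ± 103 and 1029 ± 106 CPM in that order, and the groups overlapped. The difference between GDF15 and PairFed was -0.31 ± 0.11 on the log2 scale (95% interval -0.54 to -0.09), with an unadjusted p of 0.0091 and an adjusted p of 0.201; in the shallower libraries it was -0.14. Against Vehicle, GDF15 differed by -0.17 ± 0.11 (adjusted p = 0.448) and PairFed by 0.14 ± 0.11 (adjusted p = 0.532). Plin2 was therefore lower on average in GDF15 than in PairFed while Plin5 was higher. As a ratio within a library, Plin5 to Plin2 was 0.0511 to 0.0666 in Vehicle, 0.0817 to 0.125 in GDF15 and 0.0395 to 0.0534 in PairFed; the GDF15 ratios lay above all others (a description, with no test).

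Plin4, a large perilipin best known from adipocytes, varied more between animals than between groups. Its Vehicle levels were 138, 50.5, 87.5, 145 and 142 CPM. In GDF15 they were 130.3, 162, 129, 146 and 219.8 CPM, and in PairFed 88.3, 74.8, 123, 174 and 126 CPM. The differences were 0.48 ± 0.30 in GDF15 against Vehicle (95% interval -0.16 to 1.13, adjusted p = 0.459) and 0.42 ± 0.30 against PairFed (-0.22 to 1.07, adjusted p = 0.590). An increase as large as that of Plin5 is inside both intervals, so these libraries could not tell a rise from none. The gene shares its locus with Hdgfl2 on the opposite strand, and whether the counting used strand was not stated. Plin3, a coat protein of nascent droplets that all cells make, was the steadiest perilipin, with 95.5 to 128 CPM in Vehicle, 110.4 to 131 CPM in GDF15 and 110.2 to 135 CPM in PairFed. Its differences from Vehicle were 0.09 ± 0.08 in GDF15 (-0.07 to 0.25, adjusted p = 0.591) and 0.13 ± 0.08 in PairFed (-0.03 to 0.29, adjusted p = 0.395). Both intervals lie below the 0.62 measured for Plin5. Plin3 is on the same chromosome (chr17:56277476-56292873), and Plin2 is at chr4:86648386-86670060.

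None of the 3 CIDE genes was called in any of the 3 comparisons by edgeR, DESeq2 or limma-voom, and none reached an unadjusted p below 0.05 in edgeR. Cideb, the CIDE gene of normal hepatocytes, varied little between libraries: 274, 325, 289.7, 285 and 286 CPM in Vehicle, 349, 307, 321, 293 and 288 CPM in GDF15, and 309, 316, 292, 291 and 283 CPM in PairFed. Its difference between GDF15 and Vehicle was 0.09 ± 0.06 (95% interval -0.04 to 0.23, adjusted p = 0.498). Cidec, also called Fsp27, is an adipocyte gene switched on in fatty liver, where it enlarges droplets; it lies at chr6:113424634-113435760, and Cideb at chr14:55754050-55758458, where Nop9 overlaps it on the opposite strand. It ranged over 45.5 to 88.1 CPM in Vehicle (mean 71.1 ± 16.8), 35.3 to 96.5 CPM in GDF15 (64.2 ± 23.4) and 65.1 to 124 CPM in PairFed (95.1 ± 26.8). The largest of its differences was GDF15 against PairFed, at -0.56 ± 0.27 (-1.15 to 0.02, adjusted p = 0.394), and it was near zero in the shallower libraries alone (-0.02). Among PairFed libraries, PairFed 3 to 5 had 124, 109.7 and 109 CPM, and PairFed 1 and 2 had 65.1 and 68.0 CPM. Cidea, a CIDE gene of brown fat that fatty liver also expresses, spanned 11.4 to 39.6 CPM in Vehicle, 6.13 to 27.0 CPM in GDF15 and 11.6 to 21.5 CPM in PairFed. The high Vehicle value came from Vehicle 3 alone, and without it the difference of GDF15 from Vehicle went from -0.01 to 0.48. Its interval with all libraries was -0.93 to 0.91, so neither a rise nor a fall of the size of Plin5's could be told from none.

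Pnpla2, the lipase of the first cut, was higher on average in both GDF15 and PairFed than in Vehicle. The Vehicle libraries had 75.0, 64.5, 56.8, 89.4 and 83.9 CPM. The GDF15 libraries had 87.1, 108, 86.6, 98.6 and 116 CPM, and the PairFed libraries 87.0, 108, 111, 113 and 109 CPM. Only Vehicle 4, the deeper Vehicle library, reached into the range of the other groups, so the groups overlapped. The remaining 4 Vehicle values lay below all 10 values of GDF15 and PairFed. How many of all genes separate with a library set aside was not computed. The 5 deeper libraries ran from 89.4 to 112.7 CPM and the 10 shallower ones from 56.8 to 116 CPM. The means were 73.9 ± 13.4, 99.4 ± 13.0 and 106 ± 10.6 CPM. Neither difference from Vehicle was called: it was 0.43 ± 0.12 in GDF15 (95% interval 0.18 to 0.68, adjusted p = 0.0615) and 0.51 ± 0.12 in PairFed (0.27 to 0.76, adjusted p = 0.0715). The DESeq2 Wald test called both (adjusted p = 0.0192 and 0.00659), as did leaving out Vehicle 4 (0.0334 and 0.0394). GDF15 without GDF15 3 (0.0411) or with a depth term (0.0107) was also called, as was PairFed without Vehicle 5 (0.0498) or without PairFed 1 (0.0293). In each comparison with Vehicle these were 4 of 26 alternatives, and the other 22 left Pnpla2 uncalled. The smallest GDF15 difference among the 26 was 0.34 and the largest 0.50, with an adjusted p as high as 0.768. For PairFed the smallest was 0.31 and the largest 0.59. That 0.31 was below the lowest PairFed value with a library left out (0.43), so it came from another kind of alternative. GDF15 and PairFed differed from each other by -0.09 ± 0.12 (-0.33 to 0.16, adjusted p = 0.807), and the sign of this small difference turned with a depth term (0.20) and in the shallower libraries (0.19).

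A further contrast, chosen after the data were seen, set the mean of GDF15 and PairFed against Vehicle. In it Pnpla2 was higher by 0.47 ± 0.10, or 1.39-fold (95% interval 0.25 to 0.69, edgeR adjusted p = 0.0263), the only one of the 10 genes called, where 2.2% of all tested genes were. This call was lost without Vehicle 1, Vehicle 2, Vehicle 3 or GDF15 2 (adjusted p = 0.0751, 0.0650, 0.0824 and 0.0523). It was also lost with a surrogate variable (0.0619), in the shallower libraries (0.369) and with the immediate-early covariate (0.460), while the value stayed between 0.38 and 0.54 in all 25 alternatives. Pnpla2 is on the plus strand at chr7:141455198-141460743.

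G0s2, the inhibitor of that lipase, was lower on average in GDF15 but was not called. Its levels were 71.6, 62.7, 55.3, 74.5 and 59.7 CPM in Vehicle, 37.8, 29.7, 65.0, 44.2 and 38.9 CPM in GDF15, and 45.0, 31.6, 101, 75.7 and 61.4 CPM in PairFed. In GDF15, 4 of the 5 libraries lay below every Vehicle library and GDF15 3 lay within the Vehicle range. PairFed spread over both. The difference of GDF15 from Vehicle was -0.58 ± 0.28 (95% interval -1.19 to 0.02, adjusted p = 0.320), and from PairFed -0.54 ± 0.28 (-1.15 to 0.06, adjusted p = 0.426). With the immediate-early covariate the first of these was -0.14, and the second was -0.20 with a depth term and -0.057 in the shallower libraries. The ratio of G0s2 to Pnpla2 in a library was 0.712 to 0.974 in Vehicle, 0.274 to 0.750 in GDF15 and 0.292 to 0.906 in PairFed, with means of 0.889 ± 0.115, 0.448 ± 0.184 and 0.591 ± 0.224. GDF15 3 was the only GDF15 library whose ratio entered the Vehicle range, and the ratio was not tested. The gene (chr1:193272161-193273217, minus strand) overlaps Lamb3 on the opposite strand.

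**Figure D4:**
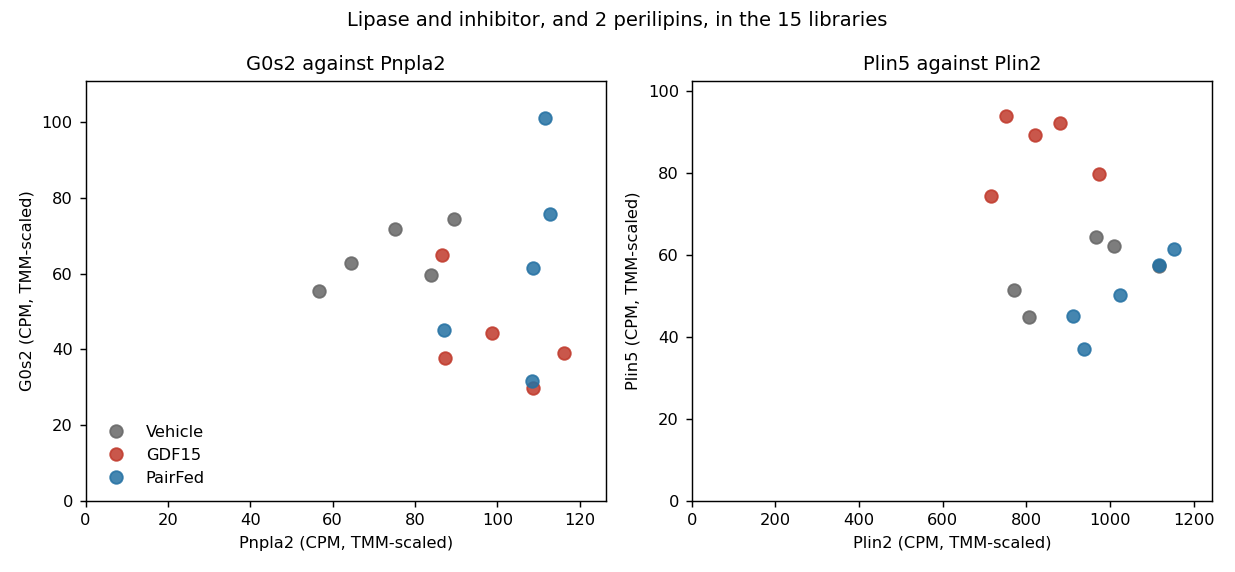
Left, G0s2 against Pnpla2, and right, Plin5 against Plin2, in CPM (TMM-scaled) with 1 point per library and colours for the groups. In the left panel the Vehicle points sit at Pnpla2 values of 56.8 to 89.4 CPM and the GDF15 points mostly to their lower right; in the right panel the GDF15 points lie above all others on the Plin5 axis.

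Pnpla3 (chr15:84167837-84187236), a gene of lipogenic feeding, had the widest spread of the 10. Vehicle libraries had 8.21, 21.2, 34.0, 4.18 and 5.35 CPM. GDF15 libraries had 7.92, 17.4, 21.3, 20.7 and 4.10 CPM, and PairFed libraries 14.0, 6.51, 3.70, 3.53 and 4.01 CPM. High and low animals occurred in both Vehicle and GDF15, whereas 4 of 5 PairFed libraries were at 6.51 CPM or less. The difference between GDF15 and Vehicle was -0.0018 ± 0.63 (95% interval -1.38 to 1.37), which is too wide to limit it. PairFed differed from Vehicle by -1.22 ± 0.67 (-2.66 to 0.22, adjusted p = 0.371) and GDF15 from PairFed by 1.22 ± 0.67 (-0.23 to 2.67, adjusted p = 0.458). All 5 deeper libraries, Vehicle 4 included, had low Pnpla3 (3.53 to 6.51 CPM, against 4.10 to 34.0 CPM in the shallower ones). With a depth term the difference between GDF15 and PairFed was -0.09, and between PairFed and Vehicle -0.14, so food amount and depth cannot be told apart for this gene.

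Of 41 tested genes of lipolysis, droplet formation, droplet surface proteins and VLDL secretion, 3 rose and 0 fell in GDF15 against Vehicle (edgeR adjusted p below 0.05), where 2.9% of all tested genes were called, with a median of 0.05. In PairFed against Vehicle 0 of 41 were called (0.285% of all genes), with 10 at an unadjusted p below 0.05, 1 called by DESeq2 and 0 by limma-voom. In GDF15 against PairFed the count was also 0 (0.782% of all genes), with 8 at an unadjusted p below 0.05, 2 by DESeq2 and 0 by limma-voom. Tm6sf2, which helps to load lipid into VLDL, rose from 34.3 ± 3.13 to 49.3 ± 6.44 CPM (0.52 ± 0.10, adjusted p = 0.00611), and its PairFed level was 38.4 ± 4.11 CPM. This call was lost with the immediate-early covariate (0.51, adjusted p = 0.233), 1 of 26 alternatives. Dgat2, which makes the triglyceride that droplets store, rose from 504 ± 32.1 to 623 ± 64.6 CPM (0.31 ± 0.07, adjusted p = 0.0242). In PairFed it was at 588 ± 10.8 CPM, which differed from Vehicle by 0.22 ± 0.07 (adjusted p = 0.136) and from GDF15 by less (0.08 ± 0.07 for GDF15 against PairFed, adjusted p = 0.655), and it was called higher in the contrast of both groups with Vehicle (adjusted p = 0.0307). The Dgat2 call against Vehicle was lost in 10 of 26 alternatives, among them leaving out Vehicle 1, 3 or 5 or GDF15 1, 2 or 4 (adjusted p = 0.0529 to 0.0872). Apoc3, an apolipoprotein that slows the clearance of VLDL, rose by 0.30 ± 0.08 (adjusted p = 0.0495), just inside the threshold and outside it in 24 of 26 alternatives, including the omission of any library but GDF15 5. None of the 13 lipolysis genes was called by edgeR in the 3 comparisons, with 2, 4 and 1 at an unadjusted p below 0.05 and 1, 1 and 0 called by DESeq2. Among them were Abhd5, the activator of PNPLA2, at 37.5 ± 5.23, 37.8 ± 3.81 and 42.7 ± 0.829 CPM in Vehicle, GDF15 and PairFed, and Pnpla8, a phospholipase, with the smallest p (0.18 ± 0.06 in GDF15 and 0.21 ± 0.06 in PairFed against Vehicle, adjusted p = 0.102 and 0.104). Abhd5 was picked for its link to PNPLA2 and not for its p. Among the droplet surface proteins the smallest p belonged to Aup1 in GDF15 against Vehicle (0.14 ± 0.05, adjusted p = 0.178) and to Hsd17b13, a droplet enzyme of hepatocytes. Hsd17b13 was at 660.0 ± 28.4 CPM in Vehicle, 636 ± 47.6 CPM in GDF15 and 750.5 ± 60.7 CPM in PairFed, with differences of 0.19 ± 0.07 in PairFed against Vehicle (adjusted p = 0.178) and -0.24 ± 0.07 in GDF15 against PairFed (adjusted p = 0.119).

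Among 11 transcription factors and cofactors that control droplet genes, 2 rose in GDF15 against Vehicle, where 2.9% of all tested genes were called. Ppargc1a, a cofactor that drives fatty acid oxidation, rose from 12.1 ± 1.43 to 24.6 ± 6.61 CPM (1.02 ± 0.17, edgeR adjusted p = 0.00371). It was also above PairFed (13.5 ± 2.66 CPM) by 0.86 ± 0.17 (adjusted p = 0.0253), as 1 of the 11 called there, where 0.782% of all tested genes were. That call was lost in 8 of 26 alternatives, among them without GDF15 1 or 2 or PairFed 3, 4 or 5 (adjusted p = 0.0561 to 0.0784). It was also lost with the depth term (0.78, adjusted p = 0.385). In the shallower libraries, where PairFed 1 is the only PairFed library, the call was lost too (0.64). Foxo1, a factor held back by insulin that is known to raise Pnpla2 and lower G0s2, rose from 44.9 ± 5.22 to 83.3 ± 18.6 CPM (0.89 ± 0.15, adjusted p = 0.00573) and stood at 55.8 ± 10.4 CPM in PairFed (0.58 ± 0.15 for GDF15 against PairFed, adjusted p = 0.0985). PairFed differed from Vehicle by 0.31 ± 0.15 in Foxo1 (adjusted p = 0.308). A link of Foxo1 to the Pnpla2 and G0s2 values was not tested. For Ppargc1a and Foxo1 all 5 GDF15 libraries were above all 5 Vehicle libraries, where groups did not overlap for 3.99% of all genes. The immediate-early score moved with them, at 4.90 ± 0.603 mean log2 CPM in GDF15 against 4.04 ± 0.376 in Vehicle and 4.57 ± 0.320 in PairFed; with that score in the model both differences from Vehicle missed the threshold (0.66 and 0.57, adjusted p = 0.369 and 0.413). Ppara itself was at 75.6 ± 17.6, 87.8 ± 23.0 and 87.6 ± 32.6 CPM in Vehicle, GDF15 and PairFed. Of 15 targets of its receptor, edgeR called 0 in each comparison, with 5 at an unadjusted p below 0.05 in each; DESeq2 called 3, 1 and 1 and limma-voom 1, 0 and 0. The targets with the smallest p were Cyp4a10 in GDF15 against Vehicle (0.63 ± 0.17, adjusted p = 0.0582), Cpt1a in PairFed against Vehicle (0.63 ± 0.15, adjusted p = 0.0781) and Vnn1 in GDF15 against PairFed (-0.36 ± 0.09, adjusted p = 0.0660). The 10 lipogenic genes that share regulators with Pnpla3 had medians of 0.36, -0.27 and 0.55 in the 3 comparisons, and edgeR called 0 of them in each, with 2, 0 and 4 at an unadjusted p below 0.05 and 2, 0 and 1 called by DESeq2. Thrsp led them, at 1.03 ± 0.31 against Vehicle (adjusted p = 0.106) and 1.20 ± 0.32 against PairFed (adjusted p = 0.117). Ppara was named for its role and not for its p.

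Of 8 markers of lipid-associated macrophages, cells that also carry droplets, 7 were below zero in GDF15 against Vehicle, with a median of -0.53, and 7 of 8 in PairFed against Vehicle, with a median of -0.51. None was called by edgeR in these comparisons (6 and 3 were at an unadjusted p below 0.05, and DESeq2 called 2 and 1). Of all tested genes, edgeR called 2.9% in GDF15 vs Vehicle, 0.285% in PairFed vs Vehicle and 0.782% in GDF15 vs PairFed. The summed level of these macrophage markers was 351 to 777 CPM in Vehicle, 272 to 459 CPM in GDF15 and 356 to 513 CPM in PairFed. All 8 hepatocyte markers were above zero in GDF15 against Vehicle, with a median of 0.21, and in PairFed against Vehicle, with a median of 0.08. EdgeR called 0 of them in both, with 3 and 0 at an unadjusted p below 0.05 and 2 and 0 called by DESeq2. Ahsg, a secreted liver protein, had the smallest p among them in GDF15 against Vehicle (0.34 ± 0.09, adjusted p = 0.0563). Of the adipocyte markers, which bear on Plin4, Cidec and Cidea, 5 of 9 (Adipoq, Lep, Retn, Ucp1 and Plin1) were not analysed here, and 3 had enough counts to be tested. EdgeR called 0 of the 3 in each comparison, with 1 at an unadjusted p below 0.05 in each, 1, 1 and 0 called by DESeq2 and 1, 0 and 0 by limma-voom; the medians were -0.89, -0.07 and -0.12. Cfd, also called adipsin, was at 10.8 ± 3.25 CPM in Vehicle, 3.79 ± 1.17 CPM in GDF15 and 4.12 ± 2.82 CPM in PairFed, with differences from Vehicle of -1.53 ± 0.40 (adjusted p = 0.0547) and -1.41 ± 0.38 (adjusted p = 0.105), and it was called lower in the contrast of both groups with Vehicle (adjusted p = 0.031). Adrb3, a beta-adrenergic receptor, was at 9.90 ± 2.02, 11.95 ± 2.45 and 9.42 ± 1.65 CPM in the same order. Aqp7, a glycerol channel, was at 1.71 ± 0.648, 0.914 ± 0.643 and 1.89 ± 1.15 CPM; GDF15 differed from PairFed by -1.05 ± 0.48 (adjusted p = 0.353), and by 0.58 in the shallower libraries. Of 5 bile duct markers, edgeR called 1, in PairFed against Vehicle, where 0.285% of all tested genes were called. This was Sox9, which fell from 14.97 ± 3.79 to 6.05 ± 1.69 CPM (-1.31 ± 0.24, adjusted p = 0.0336). The Sox9 call was lost in 9 of 26 alternatives, among them without Vehicle 1, 2 or 3 or PairFed 2, 4 or 5 (adjusted p = 0.0541 to 0.117). It was also lost with the depth term (-1.105, adjusted p = 0.225) and with the immediate-early covariate (-0.99, adjusted p = 0.152). In the shallower libraries, where PairFed 1 is the only PairFed library, the call was lost too (-1.18). The bile duct medians were -0.20, -0.60 and 0.51 in the 3 comparisons. The 6 endothelial markers had medians of -0.03, 0.40 and -0.47, with 6 of 6 above zero in PairFed against Vehicle and 0 of 6 in GDF15 against PairFed. Of 9 stellate cell markers, 8 were below zero in each comparison, with medians of -0.25, -0.15 and -0.07. The 6 Kupffer cell markers had medians of 0.17, -0.03 and 0.20. EdgeR, DESeq2 and limma-voom called 0 of the endothelial, stellate and Kupffer markers in the 3 comparisons, with 0, 0 and 2 endothelial, 0, 0 and 0 stellate and 1, 0 and 0 Kupffer markers at an unadjusted p below 0.05 in edgeR. The part of cell composition in the Plin5, Pnpla2 and G0s2 values was not tested.

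Once the group means were removed, some pairs of the genes still varied together or in opposite directions from animal to animal. Correlations of the residual log2 CPM were computed for all 45 pairs over the 15 libraries, with 100000 permutations within groups, two-sided. By Pearson's r 12 pairs had an adjusted p below 0.05, and 5 of them also by Spearman's rho. The share of such pairs among all tested genes was not computed, so whether 12 of 45 is more than for other genes was not tested. For Cideb, the r with Plin5 was -0.81 (permutation p = 7e-05, adjusted p = 0.00315; rho -0.77, permutation p = 0.00127, adjusted p = 0.0146). With Plin4, Cideb had an r of -0.78 (permutation p = 0.00049, adjusted p = 0.011; rho -0.79, adjusted p = 0.0146). With Plin3 it had an r of -0.72 (permutation adjusted p = 0.0362; rho -0.66, adjusted p = 0.0631), and with Plin2 an r of -0.48 (permutation adjusted p = 0.203). The lipases were opposed, with an r of -0.82 between Pnpla2 and Pnpla3 (permutation p = 0.00251, adjusted p = 0.0226; rho -0.83, adjusted p = 0.0178). Plin4 went with Pnpla2 (r = 0.71, permutation p = 0.0105, adjusted p = 0.0472; rho 0.77, adjusted p = 0.0146). It went against Pnpla3 (r = -0.73, permutation p = 0.00542, adjusted p = 0.0348; rho -0.82, adjusted p = 0.0146). Without the 2 libraries farthest from the median of the first gene, r was -0.74 for Plin5 and Cideb, -0.63 for Plin4 and Cideb, -0.69 for Pnpla2 and Pnpla3, 0.87 for Plin4 and Pnpla2 and -0.80 for Plin4 and Pnpla3. Within the 9 shallower libraries of Vehicle and GDF15 the same pairs had an r of -0.91, -0.79, -0.73, 0.73 and -0.69. All these values come from the same libraries and scaling, so a shift of the whole library enters every pair.

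**Figure D5:**
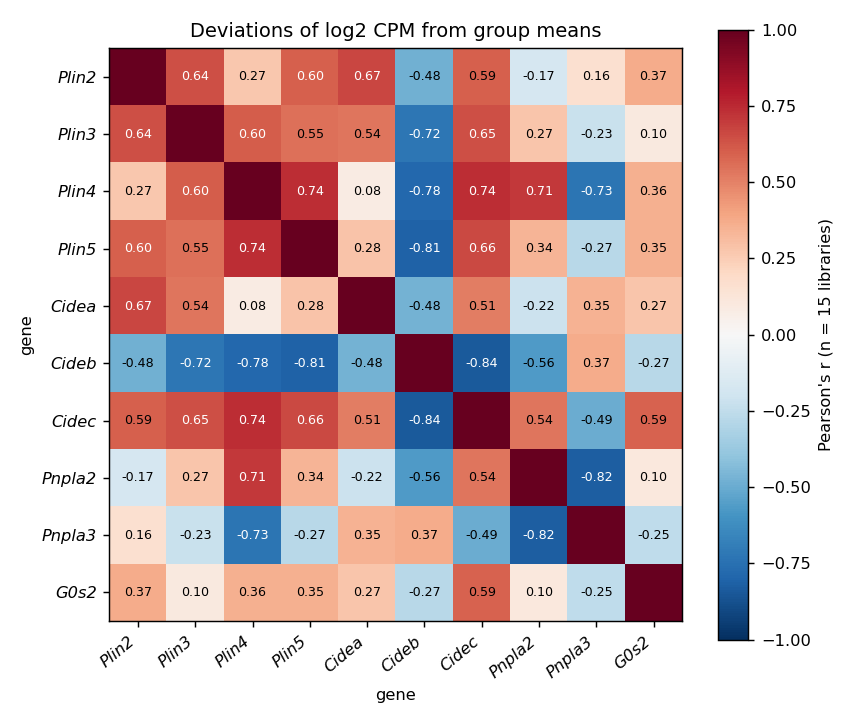
Pearson's r between the genes over 15 libraries, from log2 CPM with group means removed, with red for positive and blue for negative values. The Cideb row is negative with 8 of the other 9 genes, down to -0.84 with Cidec, and the Pnpla2 and Pnpla3 pair stands at -0.82.

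By a measure of likeness, Pearson's r of log2 CPM over all 15 libraries, the genes nearest to Plin5 were Gmeb2 (0.86), Ppip5k2 (0.86) and Jade2 (0.84). Nearest to Plin2 were Cldn5 (0.92), Prune1 (0.88) and Tnfrsf23 (0.88), and nearest to Pnpla2 were Rab43 (0.93), Slc22a5 (0.93) and Ttll5 (0.92). Outside that rule, and chosen after their values were seen, Pnpla3 went with the fatty acid synthase gene Fasn (0.92). Tmem41b (0.94) and Gdap2 (0.93) ranked above Fasn. G0s2, also chosen so, went with Inhbe (0.96), which encodes a hepatocyte hormone. These correlations are descriptions across libraries that share groups, scaling and depth, picked from the 3 highest for each gene.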

How the data were processed

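Per the labels' protocols, liver RNA was purified with TRIzol and RNeasy, and a strand-keeping kit was used for the libraries. The submitters' processing notes list Salmon, DESeq2 and mm10 and give neither versions nor roles. The deposited table has 1 row per gene symbol and 1 column per library of estimated counts, all whole numbers; that these are rounded Salmon estimates is inferred, and the transcript set and strand setting were not stated. Columns were assigned to groups by name, and libraries are numbered by column order, as names only.

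From these counts, genes were filtered with filterByExpr (count of 10, total of 15), scaled by TMM and tested, two-sided, with edgeR 4.0.16 in R 4.3.3 (robust quasi-likelihood, all 15 libraries, Benjamini-Hochberg adjustment over 12274 genes). In simulated counts for 12274 genes, 67 were given a change of 0.5 log2 in GDF15. Of these 67, 52.2% were recovered in GDF15 vs Vehicle and 47.8% in GDF15 vs PairFed. The simulation put in no shift of expression tied to depth or to the immediate-early genes, so recovery with such shifts was not tested. Log values used a prior count of 2. Gene models and exon lengths are from GENCODE vM21 on GRCm38, and promoters from RefSeq. Named were the 10 genes, in each other list the called genes or the gene of smallest p, neighbours of called genes, and the 3 nearest by correlation; not all of them are printed. The genes and lists were chosen with earlier results of these data known. Alternatives were DESeq2 1.42.0, limma 3.58.1 (voom), sva 3.50.0, other scalings and filters, depth, an immediate-early score and each library left out.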

Additional observations from a re-analysis of the deposited data

Results flagged for a closer look

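In 3 of the 30 sets of 5 libraries (10 genes in 3 groups), the highest or lowest library lay apart from the rest of its group by Dixon's criterion. That criterion is set to flag about 1 in 20 sets of normally distributed values, which CPM values need not be. The sets are also not independent, with an r of -0.82 between Pnpla2 and Pnpla3, so 3 of 30 cannot be set against that rate. Cidea was at 39.6 CPM in Vehicle 3, and the next Vehicle value was 14.7 CPM. Pnpla2 was at 87.0 CPM in PairFed 1, below the next value of 108.3 CPM. Pnpla3 was at 14.0 CPM in the same library, PairFed 1, above the next value of 6.51 CPM. PairFed 1 is the only PairFed library among the shallower ones; the part of depth in its values was not tested.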

How the results depend on the processing

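No paired analysis was possible because the numbers 1 to 5 in the column names are not tied to animals by any label, and no source links individual PairFed and GDF15 mice. For the 10 genes, 741 of 805 alternative values kept their sign and their side of the threshold, and 16 of 31 results had no reversal. In GDF15 vs Vehicle, signs turned for Cidea (limma-voom 0.049, surrogate variable 0.50, immediate-early covariate 0.67), Cidec (surrogate variable 0.18, covariate 0.24), Pnpla3 (limma-voom 0.30, surrogate variable 0.16, covariate 0.27) and Plin2 (covariate 0.044). In PairFed vs Vehicle they turned for Cidea (limma-voom 0.032, surrogate variable 0.25, depth term 0.16, covariate 0.33), Plin4 (depth term -0.23, shallower libraries -0.25), G0s2 (surrogate variable 0.025, covariate 0.23) and Cideb (surrogate variable -0.0097). In the shallower libraries they turned for Plin2 (-0.10), Plin3 (-0.038), Cidec (-0.12) and Surf4 (0.0015), and with the depth term for Acaca (0.012). In GDF15 vs PairFed they turned with the depth term for Plin3 (0.050), Cidea (-0.24), Pnpla2 (0.20) and Pnpla3 (-0.086), in the shallower libraries for Plin3 (0.13), Pnpla2 (0.19) and Aqp7 (0.58), and with the covariate for Plin3 (0.0066). Leaving out 1 library gave -0.21 to 0.48 for Cidea, -0.34 to 0.0073 for Cidec and -0.26 to 0.58 for Pnpla3 in GDF15 vs Vehicle. It gave -0.13 to 0.19 for Plin4, -0.28 to 0.36 for Cidea and -0.28 to 0.13 for G0s2 in PairFed vs Vehicle, and -0.072 to 0.33 for Cidea in GDF15 vs PairFed.

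The number of the 10 genes called in GDF15 vs Vehicle was 1, and 2 with DESeq2, 2 with the depth term, 0 with the covariate and 0 to 2 with a library left out. In PairFed vs Vehicle it was 0, with 1 in DESeq2 and 0 to 1 with a library left out; in GDF15 vs PairFed it was 1, with 0 under the depth term and 0 in the shallower libraries. In GDF15 and PairFed vs Vehicle it was 1, with 0 under the surrogate variable, 0 in the shallower libraries, 0 with the covariate and 0 to 1 with a library left out. Other droplet genes called in GDF15 vs Vehicle numbered 3, with 5 in DESeq2, 1 in a fit of only the groups compared, 1 with the surrogate variable, 1 in the shallower libraries, 0 with the covariate and 1 to 3 with a library left out. They numbered 0 in PairFed vs Vehicle (1 in DESeq2) and 0 in GDF15 vs PairFed (2 in DESeq2, 0 to 1 with a library left out). The cause of these shifts was not tested. Of all genes, DESeq2 called 5.23% in GDF15 vs Vehicle (edgeR 2.9%), 2.77% in PairFed vs Vehicle (0.285%) and 2.09% in GDF15 vs PairFed (0.782%). The covariate fit called 0.0733% in GDF15 vs Vehicle; in GDF15 vs PairFed the depth term called 0.0733% and the shallower libraries 0%. Counts per library were lowest for Pnpla3 (39 to 327) and Cidea (48 to 381).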
